A study of Mus musculus with 6 samples.

Results

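Lysosomal glycosidases, sulfatases, lipid hydrolases, their activator proteins and the main proteins of the lysosomal membrane were followed in mouse spleen cells that did or did not carry the label of engulfed human cells. The set holds 35 genes, chosen by name for the substrate or role of their product, with the cathepsins and the proton pump left out. It was chosen with earlier results of these data known, so its shares beside those of all genes are a description. All 35 were found by symbol among the 21847 genes of the deposited table. RNA came from splenocytes depleted of T cells and cultured for 3 days on human cord tissue mesenchymal stromal cells (MSCs) that carried Qtracker, a fluorescent quantum dot label. Sorted Qtracker positive cells, described by the submitters as having engulfed MSCs, were set against Qtracker negative cells, with 3 libraries in each group that the series calls paired. Both groups came from co-culture, and no group without MSCs is compared here. The labels name the sorted cells splenic macrophages, give the gate once as CD11b+ Ly6G- and once as Ly6C-, and give no mouse strain, age or sex. Whether the pairs came from separate animals is not given either, so the p-values rest on variation among these 6 libraries alone, and some of it may be technical.

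Lysosomes take up engulfed material by fusion with phagosomes and break it down with acid hydrolases. Soluble hydrolases are made in the endoplasmic reticulum and sent to lysosomes on the mannose 6-phosphate tag. Complex glycans, glycosaminoglycans and sphingolipids are taken apart by chains of enzymes, each acting on the end that the previous one exposed, and loss of 1 enzyme stores its substrate. Macrophages are rich in these genes, and many of them carry CLEAR elements, which hold the E-box CACGTG and are bound by the transcription factors TFEB and TFE3.

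Promoter sequences were taken from RefSeq (GRCm38.p6, the assembly of mm10), which gave 250 bases before and 50 after the start for 31 of the 35 genes. The palindrome CACGTG, which reads alike on both strands, was in the promoters of 9 of these 31 genes (29%), against 8.09% of the 27025 genes in that table. Its longer form TCACGTGA, which contains it, was in 3 of the 31 genes (9.68%), against 1.12% of all genes. The genes with CACGTG were Lamp1, Mcoln1, Gla, Gaa, Glb1, Naglu, Sgsh, Arsa and Cln3. Windows of 3 of them are shown because they lie wholly before the start and touch no annotated exon. CACGTG is in capitals and the sequence reads 5′ to 3′ along the gene.
Lamp1, chr8:13159088-13159160, plus strand: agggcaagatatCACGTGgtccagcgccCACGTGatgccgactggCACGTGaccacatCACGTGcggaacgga
Glb1, chr9:114401018-114401047, plus strand: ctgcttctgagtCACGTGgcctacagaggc
Gaa, chr11:119267811-119267840, plus strand: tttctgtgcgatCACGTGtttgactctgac
The Lamp1 window held 4 sites in its 73 bases, and the Glb1 and Gaa windows held 1 each. A match is a description of the letters and not a measured binding site.

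Of the 35 genes, 30 were higher in Qtracker positive cells and 0 lower (edgeR quasi-likelihood test with the pair as a block, Benjamini-Hochberg adjusted p under 0.05 over 14605 genes). Of all genes tested, 18.5% were called higher and 16.3% lower. All 35 passed the filter on low counts. The median log2 change, positive minus negative, was 1.95 over the 35 genes and -0.01 over all genes tested. The 3 positive libraries lay above all 3 negative ones for 33 of the 35 genes, which was so for 30% of all genes. The 5 genes not called were Lamp2, Cln3, Galns, Arsb and Smpd1. At an unadjusted p under 0.05, 31 genes were higher and 0 lower, against 25.8% and 24.5% of all genes. With library totals as the only scaling, which moved the median of all genes to -0.36, 27 of the 35 were higher and 1, Arsb, was lower. All genes then split into 1572 higher (10.8%) and 3316 lower (22.7%) calls, instead of 2707 and 2384. DESeq2 called 33 of the 35 higher and 1, Arsb, lower, where 23.4% and 25.1% of all genes were called. Without the pair as a block 30 were higher and 0 lower, against 19.9% and 20.9% of all genes. The higher calls of the other alternatives were 30 of 35 with median-of-ratios factors (17.4% of all genes), 29 with upper quartile factors (14.8%), 30 with no filter (11.4%), 30 with a stricter filter (20%), 30 by limma-voom (20.6%) and 26 with the authors' normalized values (13.1%).

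**Figure D1:**
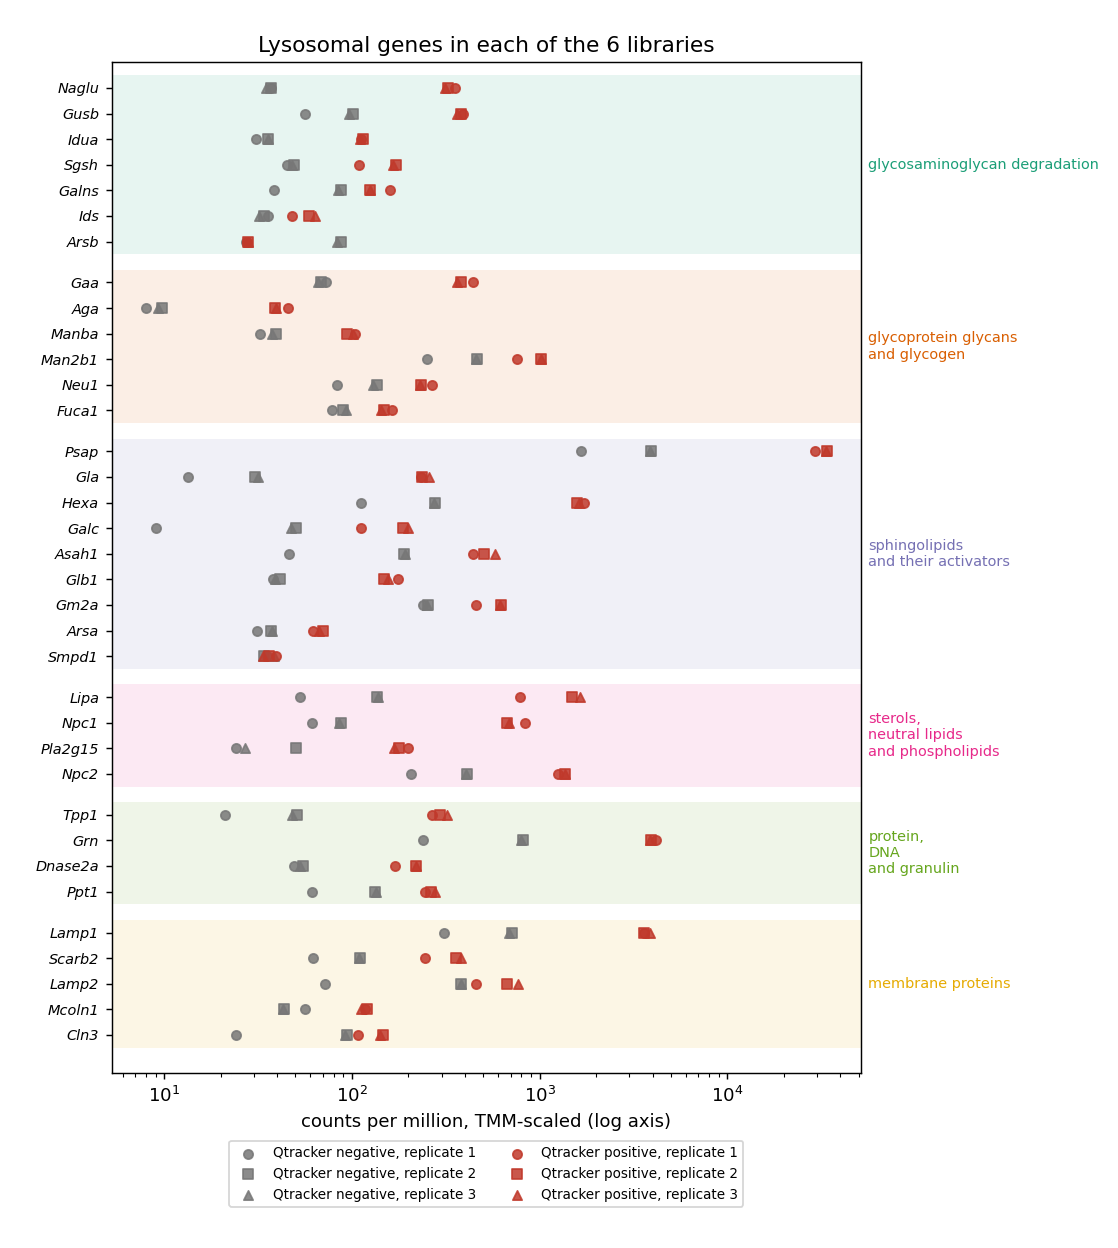
Level of each of the 35 genes in each library, in counts per 1e+06 (CPM, TMM-scaled, log axis), grouped by substrate class. Positive libraries (red) lie to the right of the negative ones (grey) for 33 genes. Arsb and Smpd1 overlap.

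Library 1 of the negative group stood apart from libraries 2 and 3. The median absolute log2 difference over the 35 genes was 0.861 between negative libraries 1 and 2 and 0.0449 between negative libraries 2 and 3. In positive cells the same differences were 0.195 and 0.0632. Of the 35 genes, 5 were higher in negative library 1 than in negative library 2. The change was largest in pair 1 for 30 genes and smallest for Sgsh, Ids, Gm2a, Dnase2a and Mcoln1, with medians of 2.21, 1.75 and 1.78 on the log2 scale in pairs 1, 2 and 3. The number of calls followed the libraries used. Without replicate 1, 33 of the 35 genes were higher and 1 lower, where 37.1% and 35.8% of all genes were called. Without replicate 2, 2 genes (Naglu and Pla2g15) were higher and 0 lower, where 0.917% and 1.18% of all genes were called. Without replicate 3, or with replicates 2 and 3 summed, edgeR called 0 genes of the table (0%). At an unadjusted p under 0.05, 31 of the 35 were higher in each of these fits, against 13.9% of all genes without replicate 3 and 14.3% with the replicates summed. DESeq2 called 28 of the 35 higher in each of these 3 settings, against 10.2% of all genes without replicate 2, 9.98% without replicate 3 and 10.2% with both summed, and Ids, Fuca1 and Arsa lost their calls in each. The median change of the 35 genes stayed between 1.76 and 1.93 when any 1 replicate was left out of the edgeR fit.

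Together the 35 genes took 0.543% to 0.968% of all counts in negative libraries and 4.27% to 4.78% in positive libraries. Library totals ran from 33943090 to 55506993 estimated counts. The summed level was 4226, 9158 and 8990 CPM in negative libraries 1, 2 and 3 and 47930, 53640 and 54140 CPM in positive libraries 1, 2 and 3. The lowest positive library thus stood well above the highest negative one. Psap, which encodes prosaposin, held 39.5% to 43.1% of this sum in negative and 61.1% to 63.1% in positive libraries. Without it the sum was 7.28, 3.79 and 3.99 times as high in positive cells in pairs 1, 2 and 3.

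Markers of cell types also differed between the groups. Of 54 tested, 9 were called higher, as most of the lysosomal genes were, and 39 lower. The summed level of 10 macrophage markers, including Csf1r, Adgre1 and the C1q chains, was 314.7 to 1854 CPM in negative and 7069 to 11150 CPM in positive libraries. All 10 markers had every positive library above every negative one, and 7 were called higher. Csf1r, Fcgr1 and Cd14 were not called (adjusted p = 0.0753, 0.0678 and 0.0729). The median log2 change of the 10 was 3.20, beside 1.95 for the lysosomal genes. None of the 10 was at 0 in any library. The summed level of 10 neutrophil markers was 2741 CPM in negative library 1 and 71400 and 71590 CPM in negative libraries 2 and 3, against 1223 to 1481 CPM in positive libraries. Of these, 9 were called lower, and Ly6g was at 0 in 1 positive library. The marker not called, Mmp8, made up 1004, 693.5 and 783.4 CPM of the sums in positive libraries 1, 2 and 3, with a log2 change of 0.76 ± 0.99. The 9 B cell markers summed to 2519 to 6347 CPM in negative and 257.3 to 335.3 CPM in positive libraries, with none at 0, and 8 were called lower. All 7 T cell markers and all 6 tested of 7 NK cell markers were also called lower. T cell sums were 41.25 to 182.2 CPM in negative and 5.134 to 13.85 CPM in positive libraries, with 1 marker at 0 in each of 2 positive libraries. NK cell sums were 11.82 to 84.98 and 0.6314 to 3.437 CPM, with 1 to 4 markers at 0 in each positive library. The 8 markers of eosinophils, basophils and mast cells summed to 77.66 to 382.6 CPM in negative and 81.71 to 312.1 CPM in positive libraries, with 2 higher and 6 lower. This sum joins opposite changes. Epx and Prg2 were higher, by 3.82 ± 0.32 and 2.68 ± 0.15 on the log2 scale. Siglecf, Ccr3, Mcpt8, Cpa3, Fcer1a and Ms4a2 were lower, with log2 changes from -2.77 (Siglecf) to -6.12 (Mcpt8). Positive library 1 had 2 of the 8 markers at 0. The 6 dendritic cell markers summed to 24.56 to 60.58 and 2.895 to 4.679 CPM, with 3 of 4 tested lower and at most 1 at 0 in a library. In bulk RNA, fewer cells of a type and less RNA per cell cannot be told apart, and the part of these mixtures in the changes below was not tested. The summed level of 8 stromal cell genes, such as Col1a1 and Sparc, was 2.362 to 5.195 CPM in negative and 3.148 to 3.91 CPM in positive libraries, with up to 2 of the 8 at 0 in a library. These 8 mouse genes were thus near 0 in both groups. The MSCs were human and the reads were handled on mm10, so these values do not measure MSC RNA.

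**Figure D2:**
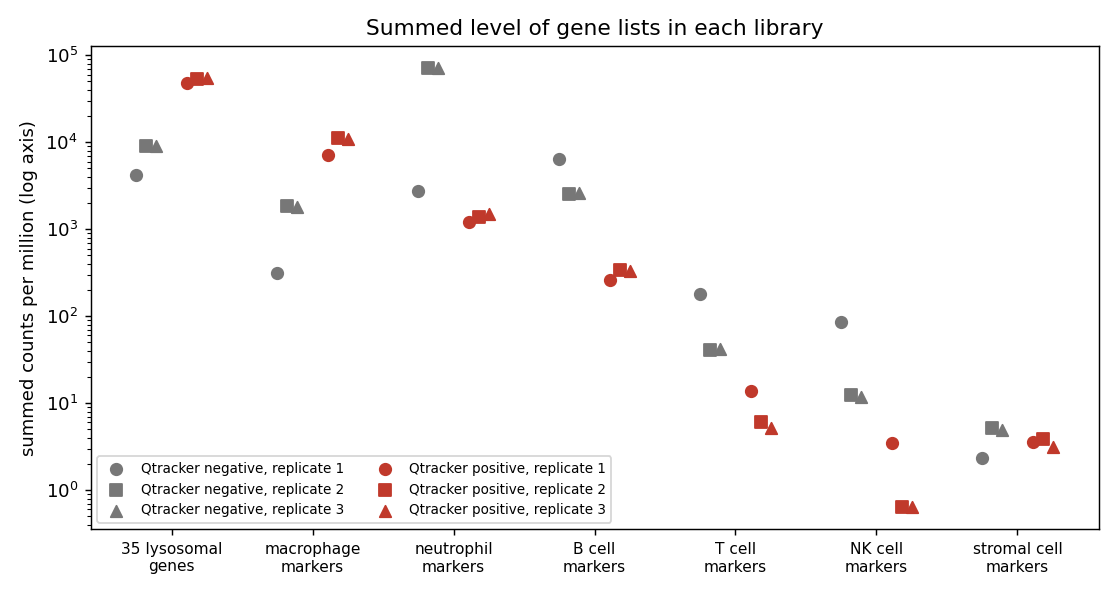
Summed CPM (log axis) of the 35 lysosomal genes and of cell type marker lists in each library. The lysosomal genes and the macrophage markers are higher in all 3 positive libraries, the neutrophil, B, T and NK cell markers are lower, and negative library 1 differs from negative libraries 2 and 3 in each list.

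Sphingolipid breakdown held the most abundant of these genes. Of its 9 genes 8 were higher, 0 lower and 1 not called, with a median log2 change of 2.08. Psap (chromosome 10, 60277627 to 60302597, mm10) encodes the precursor of the saposins, small proteins that present sphingolipids to their hydrolases. Its level was 1668, 3933 and 3873 CPM in negative libraries 1, 2 and 3 and 29310, 33850 and 33720 CPM in positive libraries 1, 2 and 3. Every positive library was far above every negative one. Psap rose by 3.45 ± 0.47 (SE) on the log2 scale, or 10.9-fold (adjusted p = 0.0176). Gla, the alpha-galactosidase lost in Fabry disease, changed by 3.36 ± 0.32, from 25.2 ± 10.2 to 242 ± 13.6 CPM (SD, n = 3). Galc, which splits galactosylceramide, rose by 2.52 ± 0.44, and Glb1, the beta-galactosidase of GM1 ganglioside, by 2.01 ± 0.13. Asah1, or acid ceramidase, rose by 2.08 ± 0.47 (adjusted p = 0.0419), a call that was lost with the authors' normalized values (adjusted p = 0.0527). Arsa, the sulfatase of sulfatide, rose by 0.91 ± 0.10.

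Smpd1, or acid sphingomyelinase, was the exception among the sphingolipid genes. Its level was 35.3, 34.2 and 38.4 CPM in negative libraries 1, 2 and 3 and 39.2, 36.03 and 33.6 CPM in positive libraries. The groups overlapped fully, and the log2 change was 0.01 ± 0.13 (adjusted p = 0.945). Its sign changed with the scaling, from 0.01 to -0.34 with library totals alone. Asah1, which acts on the ceramide that Smpd1 releases, exceeded it in log2 change by 3.11, 1.34 and 1.78 in pairs 1, 2 and 3.

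The parts of GM2 ganglioside breakdown differed in size of change. Hexa encodes the alpha chain of beta-hexosaminidase A, and Gm2a the activator that lifts the ganglioside to the enzyme. Hexa stood at 111.4, 278.2 and 274.0 CPM in negative libraries 1, 2 and 3 and at 1732, 1590 and 1616 CPM in positive libraries. The positive libraries lay close together and well above the negative ones. The change of Hexa was 3.00 ± 0.41 on the log2 scale and that of Gm2a 1.18 ± 0.16, and both were called. In each pair Hexa exceeded Gm2a, by 3.02, 1.22 and 1.26. With 3 pairs no test of such a difference between genes was made.

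Sterol, neutral lipid and phospholipid genes had the largest median change of the 6 classes, 2.87 on the log2 scale, and all 4 were higher. Lipa (chromosome 19, 34492318 to 34527474) encodes lysosomal acid lipase, which frees cholesterol and fatty acids from esters. It stood at 52.9, 135.3 and 137.8 CPM in negative and 781.6, 1494 and 1641 CPM in positive libraries 1, 2 and 3. No library of 1 group reached the other, and replicate 1 was the lowest in both. Lipa had the largest log2 change of the 35 genes, 3.64 ± 0.19, or 12.5-fold (adjusted p = 0.0063). Npc1 and Npc2 pass the freed cholesterol to the lysosomal membrane and out of the organelle. Npc1 rose by 3.23 ± 0.25, from 78.1 ± 14.6 to 728 ± 89.2 CPM. Npc2 stood at 206.7, 408.1 and 405.5 CPM in negative and at 1252, 1369 and 1371 CPM in positive libraries, without overlap, and rose by 2.03 ± 0.27. The excess of Npc1 over Npc2 was alike in the 3 pairs, at 1.16, 1.18 and 1.25 on the log2 scale. Pla2g15, a lysosomal phospholipase A2, rose by 2.51 ± 0.30.

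Glycosaminoglycan enzymes were uneven. Of 7 genes 5 were higher, 0 lower and 2 not called, with a median log2 change of 1.63. Naglu (chromosome 11, 101070012 to 101077672), the alpha-N-acetylglucosaminidase of heparan sulfate, was the steadiest of the large rises. Its level was 37.2, 37.1 and 34.9 CPM in negative and 352.2, 324.0 and 313.9 CPM in positive libraries 1, 2 and 3, so that replicate 1 did not stand apart. Naglu rose by 3.18 ± 0.13, or 9.06-fold (adjusted p = 0.00585), and by 3.24, 3.13 and 3.17 in the 3 pairs. Other heparan sulfate enzymes rose less. The beta-glucuronidase Gusb rose by 2.20 ± 0.26, the iduronidase Idua by 1.73 ± 0.12, the sulfamidase Sgsh by 1.63 ± 0.17 and the iduronate sulfatase Ids by 0.74 ± 0.15. The call of Ids was lost with library totals alone, upper quartile factors and the authors' normalized values.

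Arsb, which removes sulfate from dermatan and chondroitin sulfate, was the one gene of the 35 with a fitted log2 change below 0. It stood at 27.3, 87.6 and 83.7 CPM in negative libraries 1, 2 and 3 and at 27.6, 27.9 and 27.8 CPM in positive libraries. Negative library 1 was thus at the positive level, and negative libraries 2 and 3 were above it. The log2 change was -1.09 ± 0.42 (adjusted p = 0.119), with 0.02, -1.65 and -1.59 in pairs 1, 2 and 3. Without replicate 1 Arsb was called lower, at -1.61. It was also called lower by DESeq2 (-1.13, adjusted p = 0.0287) and with library totals alone (-1.43, adjusted p = 0.0489). The high negative libraries were those with neutrophil marker sums of 71400 and 71590 CPM, against 2741 CPM in negative library 1. The part of this in the Arsb values was not tested.

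Galns, the sulfatase of keratan sulfate, had values in the other direction. It stood at 38.5, 87.2 and 84.0 CPM in negative and 158.9, 125.1 and 125.2 CPM in positive libraries 1, 2 and 3. The groups did not overlap, but the change was 2.04 in pair 1 and 0.52 and 0.58 in pairs 2 and 3, and the fitted 1.04 ± 0.39 missed the threshold (adjusted p = 0.111). Without replicate 1 it was called at 0.56, and DESeq2 called it at 1.00 (adjusted p = 0.0389). By enzyme type, a split made after the values were seen, the 5 sulfatases (Sgsh, Ids, Arsb, Galns and Arsa) had a median log2 change of 0.91, with 3 higher. The 12 glycosidases had a median of 2.10, with all 12 higher and a range of 0.80 to 3.36. The medians of the sulfatases in pairs 1, 2 and 3 were 0.99, 0.80 and 0.83, and those of the glycosidases 2.41, 1.88 and 1.95. Sumf1, which activates all sulfatases by modifying a cysteine in their active site, rose by 1.84 ± 0.20.

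Enzymes of glycoprotein glycans and glycogen were all higher, 6 of 6, with a smaller median log2 change of 1.37. Gaa (chromosome 11, 119267887 to 119285454), the alpha-glucosidase that degrades glycogen in lysosomes, led them. It stood at 72.6, 68.5 and 65.8 CPM in negative and 441.3, 382.3 and 361.4 CPM in positive libraries, with narrow spread in both groups. Gaa rose by 2.51 ± 0.13, or 5.71-fold (adjusted p = 0.0063). Aga, which cuts the bond between asparagine and the glycan, rose by 2.19 ± 0.16 from 8.99 ± 0.899 CPM (SD, n = 3). The mannosidases Manba and Man2b1 rose by 1.46 ± 0.14 and 1.28 ± 0.18, and differed by at most 0.28 in any pair. Neu1, the sialidase, rose by 1.09 ± 0.25. Its partners in the lysosomal multienzyme complex, Glb1 and the protective protein Ctsa, rose by 2.01 and 2.65, and both exceeded Neu1 in each of the 3 pairs. The fucosidase Fuca1 changed least in this class. It stood at 78.6, 89.3 and 92.8 CPM in negative and 162.8, 148.9 and 143.3 CPM in positive libraries, without overlap, and its log2 change was 0.80 ± 0.14 (adjusted p = 0.0263). The calls of Neu1 and Fuca1 were lost with library totals alone (adjusted p = 0.0522 and 0.0538) and with the authors' normalized values (adjusted p = 0.0624 and 0.0576).

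Genes for protein and DNA breakdown and for granulin were all higher, 4 of 4, with a median log2 change of 2.41. Grn (chromosome 11, 102430315 to 102437048) encodes progranulin, which is cut into granulins in lysosomes. It stood at 237.9, 812.7 and 797.3 CPM in negative and 4152, 3908 and 3875 CPM in positive libraries 1, 2 and 3. The positive libraries were nearly level, and negative library 1 was far below the others, so the change was 4.13 in pair 1 and 2.27 and 2.28 in pairs 2 and 3. Grn rose by 2.87 ± 0.53 on the log2 scale (adjusted p = 0.0293). Tpp1, a tripeptidyl peptidase, stood at 21.0, 50.8 and 47.7 CPM in negative and 267.6, 293.2 and 320.8 CPM in positive libraries and rose by 2.98 ± 0.30. Its groups were widely separated. Dnase2a, the acid nuclease that digests the DNA of engulfed cells, rose by 1.95 ± 0.13, with 1.79, 2.00 and 2.05 in the pairs. Ppt1, which removes palmitate from proteins, stood at 61.0, 132.0 and 133.8 CPM in negative and 243.5, 263.7 and 275.9 CPM in positive libraries. It did not overlap between groups and rose by 1.34 ± 0.27, the smallest change of these 4 genes.

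**Figure D3:**
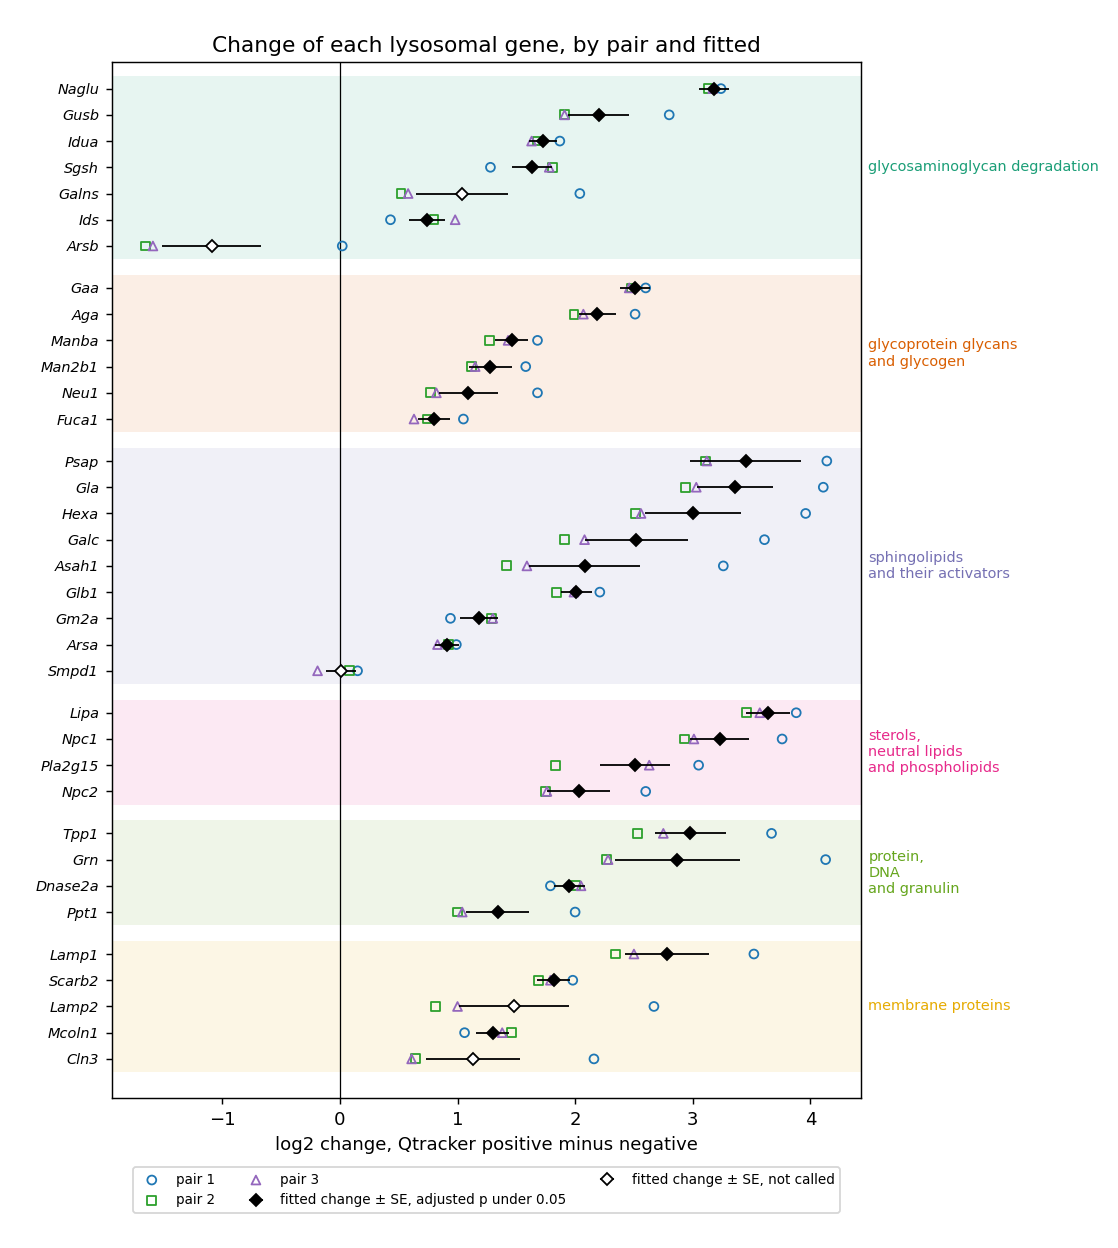
Log2 change, positive minus negative, of each gene in each pair (open symbols) and as fitted with its standard error (diamonds, filled where adjusted p was under 0.05). Pair 1 lies to the right of pairs 2 and 3 for 30 genes, by more than 1 log2 unit for Psap, Grn and Asah1 among others, and Arsb is the one gene well to the left of 0.

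The membrane proteins were the class with the fewest calls, 3 of 5. Lamp1 (chromosome 8, 13159161 to 13175338), a heavily glycosylated protein that lines the lysosomal membrane and whose promoter window held 4 CACGTG sites, stood at 310.7, 710.2 and 684.8 CPM in negative and 3573, 3593 and 3884 CPM in positive libraries. All positive libraries were well above all negative ones. Lamp1 rose by 2.78 ± 0.36, or 6.89-fold (adjusted p = 0.0161). Its relative Lamp2, which also serves in autophagy, stood at 71.9, 382.3 and 382.1 CPM in negative and 459.5, 669.7 and 766.1 CPM in positive libraries. The groups did not overlap, but negative library 1 lay far below the other two. The change of Lamp2 was 2.67, 0.81 and 1.00 in the pairs and 1.48 ± 0.47 as fitted, which missed the threshold (adjusted p = 0.0803). Lamp1 exceeded Lamp2 in each pair, by 0.85, 1.53 and 1.5 on the log2 scale.

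Cln3, a membrane protein lost in juvenile Batten disease, was not called either. It stood at 24.1, 93.9 and 92.1 CPM in negative and 108.2, 145.9 and 140.8 CPM in positive libraries, and its change of 1.13 ± 0.40 missed the threshold (adjusted p = 0.0999). Both were called higher without replicate 1, Lamp2 at 0.92 and Cln3 at 0.64, and by DESeq2 (adjusted p = 0.00615 and 0.0262). Scarb2, a membrane protein also known as LIMP-2, rose by 1.82 ± 0.14. Mcoln1, the calcium channel TRPML1, rose by 1.30 ± 0.14, and was among the 5 genes whose change was smallest in pair 1.

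Levels were also scaled to the length of merged exons, for a rough order between genes. Merged exons join all annotated exons of a gene and can be longer than its main transcript. The ranks are therefore approximate. By mean CPM per kilobase Psap was first in both groups, at 1150 in negative and 11800 in positive cells. Lamp1, Grn, Hexa and Npc2 followed in that order in both groups. Lamp1 and Grn were close, at 1380 and 1150 CPM per kilobase in positive cells. Lipa went from rank 15 to rank 6 and Naglu from rank 18 to rank 9, while Galns went from 13 to 22 and Arsb from 22 to 35, the last place. The order of the log2 changes among the 35 genes was similar between pairs, with Spearman's rho of 0.78 for pairs 1 and 2 and 0.98 for pairs 2 and 3, given as a description over genes that share libraries. The 9 genes with CACGTG in the promoter had a median log2 change of 2.01 and a range of 0.91 to 3.36, and the 22 without it a median of 1.78 and a range of -1.09 to 3.64.

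**Figure D4:**
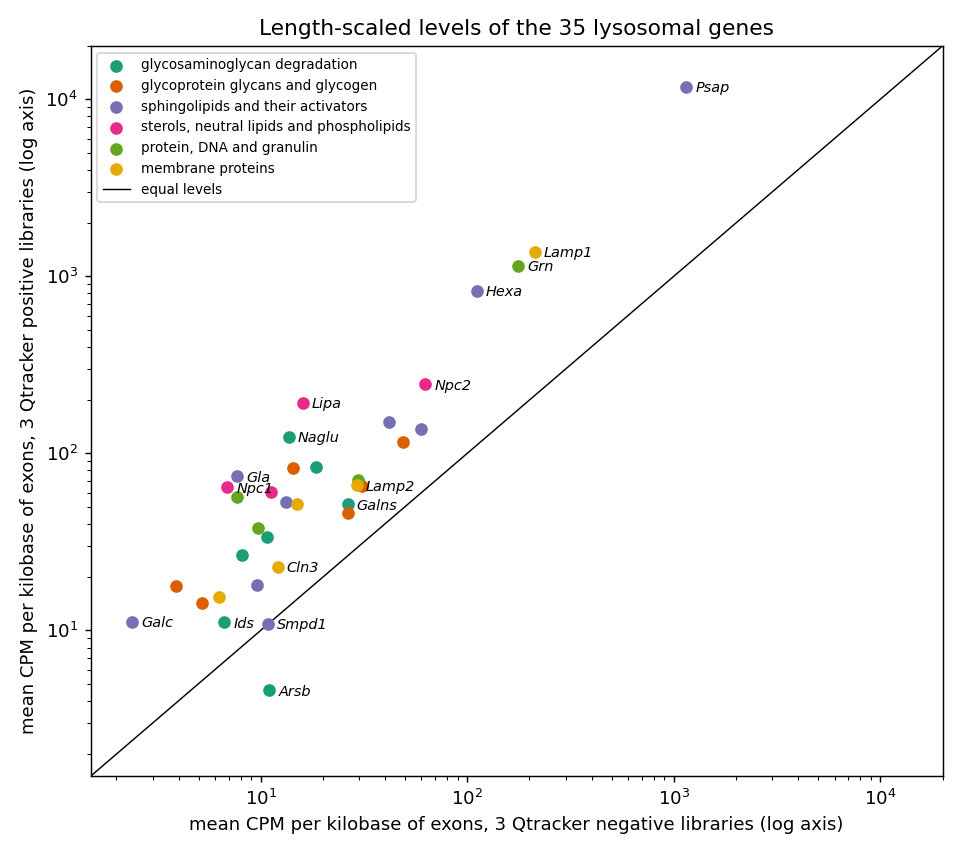
Mean CPM per kilobase of merged exons in negative (x) and positive (y) libraries, both log axes, for the 35 genes, with a line of equal levels. Psap is highest in both, Smpd1 lies on the line, and Arsb lies below it.

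Other lysosomal genes that are not in the set were mostly higher too. Of 48 such genes found by symbol, 38 were higher, 0 lower and 10 not called, with a median log2 change of 1.46, where 18.5% of all genes were called higher and 16.3% lower. At an unadjusted p under 0.05, 41 were higher and 1 lower, against 25.8% and 24.5% of all genes. Without replicate 1, 44 were higher and 3 lower, against 37.1% and 35.8%. Among other soluble hydrolases and partners 17 of 20 were higher. The hyaluronidase Hyal1 had the largest change, 4.48 ± 0.21, from 1.47 ± 0.288 to 33.6 ± 11.6 CPM (SD, n = 3), followed by the secreted glycoprotein Creg1 at 3.39 ± 0.27 and the acid phosphatase Acp2 at 2.93 ± 0.43.

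In the mannose 6-phosphate route and sulfatase activation 8 of 9 genes were higher. Cln8, which helps lysosomal enzymes leave the endoplasmic reticulum, rose by 3.30 ± 0.48 and its partner Cln6 by 1.32 ± 0.22. Both mannose 6-phosphate receptors rose, Igf2r by 2.59 ± 0.26 and M6pr by 1.27 ± 0.15, and Igf2r exceeded M6pr in each pair, by 1.67, 1.17 and 1.11. The sorting receptor Sort1, a second route for prosaposin and progranulin, was not called. It stood at 42.5, 400.3 and 394.2 CPM in negative and 150.5, 194.9 and 200.3 CPM in positive libraries 1, 2 and 3, with a change of 1.82 in pair 1 and -1.04 and -0.98 in pairs 2 and 3. Among other membrane proteins 13 of 19 were higher, led by Cd68 (4.18 ± 0.53), Cd63 (2.52 ± 0.60) and the chloride exchanger Clcn7 (2.47 ± 0.16), whose subunit Ostm1 rose by 1.28 ± 0.21. Hgsnat, the membrane acetyltransferase of heparan sulfate breakdown, rose by 1.16 ± 0.21.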

How the data were processed

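Per the submitters' processing notes, reads were handled with FastQC and Salmon on mm10, without versions. The annotation release, and whether counting used strand, are not given in the sources used here. Estimated counts (expected counts) per gene were deposited by the authors as whole numbers. The authors' normalized table holds a signal whose formula is not stated and served only as an alternative.

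After filterByExpr (at least 10 counts, 15 in total) and TMM scaling, edgeR 4.0.16 (R 4.3.3) gave quasi-likelihood F-tests. The replicate number was a block, because the series calls the replicates paired. Deviations of same-numbered libraries correlated at 0.2, 0.077 and 0.16, and those of differently numbered ones at up to -0.11, 0.15 and 0.15, so the pairing rests on the series' words. Standard errors came from the F statistic. CPM used TMM-scaled totals, and pair changes a prior count of 2. Exon lengths and coordinates came from GENCODE M21. The fit was also run on simulated independent counts with no replicate effect, as a check of the code. That check does not bear on the calls in these data.

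Members and lists were chosen with earlier results of these data known. All 35 members are named. Library values are given for the largest and smallest change of each class, members not called and the 5 most abundant, and other pathway genes for the 3 largest calls of each list. Ctsa, M6pr, Cln6, Sort1, Hgsnat, Ostm1 and Mmp8, the stromal list, the enzyme types and the comparisons between partner genes were chosen after values were seen. One listed pathway symbol was not matched. Alternatives were other scalings, filters, DESeq2 1.42.0, limma-voom (limma 3.58.1), the authors' normalized values (limma on log2 of the value plus 1), no block, left-out replicates and replicates 2 and 3 summed. Figures used matplotlib 3.10.9.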

Additional observations from a re-analysis of the deposited data

How the results depend on the processing

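The 30 higher calls among the 35 genes became 30 with median-of-ratios factors, 29 with upper quartile factors, which moved the median of all genes to -0.15, 30 with no filter, 30 with a stricter filter of 50 counts in 3 libraries, 33 by DESeq2, 30 by limma-voom and 26 with the authors' normalized values. Without the replicate block 30 were higher and 0 lower, no member changed its call, and all genes had 2911 higher and 3058 lower calls. With library totals alone 1572 of all genes were higher, 1 member and 1 other lysosomal gene were lower, and the median change of the members was 1.60. DESeq2 called 3665 of all genes, 1 member and 1 other lysosomal gene lower. Leaving out 1 replicate in turn gave 0 to 5538 higher and 0 to 5352 lower calls among all genes, 0 to 33 and 0 to 1 among the members, and 0 to 44 and 0 to 3 among other lysosomal genes. These ranges include DESeq2 without replicate 2 (1513 of all genes higher) and without replicate 3 (1477). With replicates 2 and 3 summed edgeR called 0 of all genes in either direction, 0 members and 0 other lysosomal genes higher, while DESeq2 called 1582 of all genes higher. DESeq2 on left-out or summed replicates was added after the data were seen. The fits without a replicate and with summed replicates use fewer libraries. That without replicate 1 rests on libraries 2 and 3, which were close to each other. Over all genes the median absolute log2 difference was 0.0674 between negative libraries 2 and 3 and 0.578 between 1 and 2. In positive libraries it was 0.107 and 0.368. The main p-values treat libraries 2 and 3 as separate replicates, and whether they are independent is not given. Smpd1, at 0.01, turned to -0.02 with median-of-ratios factors and by DESeq2, -0.13 with upper quartile factors, -0.34 with library totals, -0.05 with the stricter filter, -0.05 without replicate 1, and -0.02 (edgeR) and -0.04 (DESeq2) without replicate 2. It was 0.12 without replicate 3. The lowest count of a member was 348 (Aga, negative library 1).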
